A study of Mus musculus with 10 samples.

Results

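The genes described are 10 markers of cancer-associated fibroblasts and of the matrix they lay down, *Pdgfra*, *Pdgfrb*, *Fap*, *Pdpn*, *Acta2*, *Postn*, *Dcn*, *Lum*, *Fn1* and *Fbln5*. They were taken by symbol, and all 10 were found among the 55401 genes of the count table. Each had reads in all 10 tumors, between 30 counts for *Pdpn* and 50027 counts for *Fn1* in a single tumor, and all 10 passed the filter on low counts that left 17464 genes for testing.

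The tumors were grown from KPN1.1, a mouse lung adenocarcinoma line, injected under the skin of the flank of obese male C57BL/6J mice. Each mouse received 75000 cells at 7 to 17 weeks of age, and obesity came from a diet with 60% of its calories from fat or the mice were bought obese. From the time a tumor could be felt, 5 mice received liraglutide, an agonist of the GLP-1 receptor, at 0.2 µg per g of body weight each day by intraperitoneal injection, and 5 received the PBS vehicle. Tumors were taken between days 19 and 22, and RNA of a frozen fragment was sequenced after removal of ribosomal RNA. The groups therefore share the cell line, the obese host and the site, and differ in treatment alone as far as the labels say. KPN1.1 is 1 cell line, and fibroblasts in such grafts come from the host. The comparison asked which genes differed in tumors of liraglutide-treated mice.

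Total counts lay between 9927942 and 14480593 per tumor. Levels are given as CPM, the counts scaled to a common library size with the TMM method, and a limit of 3 counts corresponds to 0.207 to 0.302 CPM. Differences are log2 fold changes of liraglutide minus vehicle from edgeR's quasi-likelihood test with Benjamini-Hochberg adjustment over the 17464 genes. A gene was called if its adjusted p was under 0.05 and its log2 fold change exceeded 0.58 in size. No gene was called (0% of those tested), and the smallest adjusted p of any gene was 0.482, while 1675 genes had an unadjusted p under 0.05. Vehicle tumor 5 stood apart on the second principal component, at -54.6 against -18.5 to 21.4 for the other 9, and each count below is also given without it where that matters. The first component held 48.7% of the variance and placed vehicle tumors 4 and 5 and liraglutide tumors 3, 4 and 5 at 24.2 to 49.7 and the other 5 tumors at -69.3 to -4.4.

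Fibroblasts in a tumor receive signals from PDGF through the paired receptors encoded by *Pdgfra* and *Pdgfrb*, and part of them become contractile myofibroblasts that express *Acta2*. They secrete fibronectin, periostin and the small proteoglycans decorin and lumican, which bind collagen, and fibulin-5, which helps to assemble elastic fibers. None of these genes is restricted to fibroblasts, because pericytes and vascular smooth muscle express *Pdgfrb* and *Acta2*, lymphatic endothelium expresses *Pdpn*, and carcinoma cells can express *Fn1*.

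*Fbln5* was the gene of the 10 with the largest difference, 3.54-fold higher in the liraglutide group, followed by *Pdgfrb*, 1.28-fold higher. Neither passed the adjusted test, and both had an unadjusted p under 0.05, so that 2 of 10 were higher at that p, beside 3.97% of all genes tested, and 0 of 10 were lower, beside 5.62%. Of all genes at that p, 694 were higher and 981 lower, and scaling by library size alone turned this to 990 higher and 619 lower, with 2 of the 10 genes at that p. The count was 1 of 10 when vehicle tumor 2, 4 or 5 or liraglutide tumor 1, 3 or 5 was left out, and 3 of 10 without liraglutide tumor 2. With single tumors left out, all genes at that p ranged from 919 of 17680 (without liraglutide tumor 5) to 2704 of 17816 (without vehicle tumor 4). They were 2448 of 17744 without liraglutide tumor 2. The log2 fold change was above 0 for 6 of 10 genes, beside 47.4% of all genes, and the median over the 10 was 0.082 beside -0.017 over all genes. Without vehicle tumor 5 it was above 0 for 3 of 10 and the median was -0.076. The median was 0.0023 without liraglutide tumor 5 and 0.020 without vehicle tumor 4 (5 of 10 above 0 in each), 0.033 without liraglutide tumor 2, 0.050 without liraglutide tumor 1, and 0.22 without vehicle tumor 2, so single tumors decided the small shift of the list. In no gene of the 10 were the groups fully separated in CPM, beside 0.607% of all genes separated with liraglutide higher and 0.888% with liraglutide lower. DESeq2 called 25 of the 4254 genes to which it gave an adjusted p (0.588%) and none of the 3 fibroblast genes among these, *Pdgfrb* at an adjusted p of 0.220, *Fn1* at 0.882 and *Postn* at 0.946. The RNA came from whole fragments, in which fewer cells of a type and less RNA per cell cannot be told apart.

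**Figure D1:**
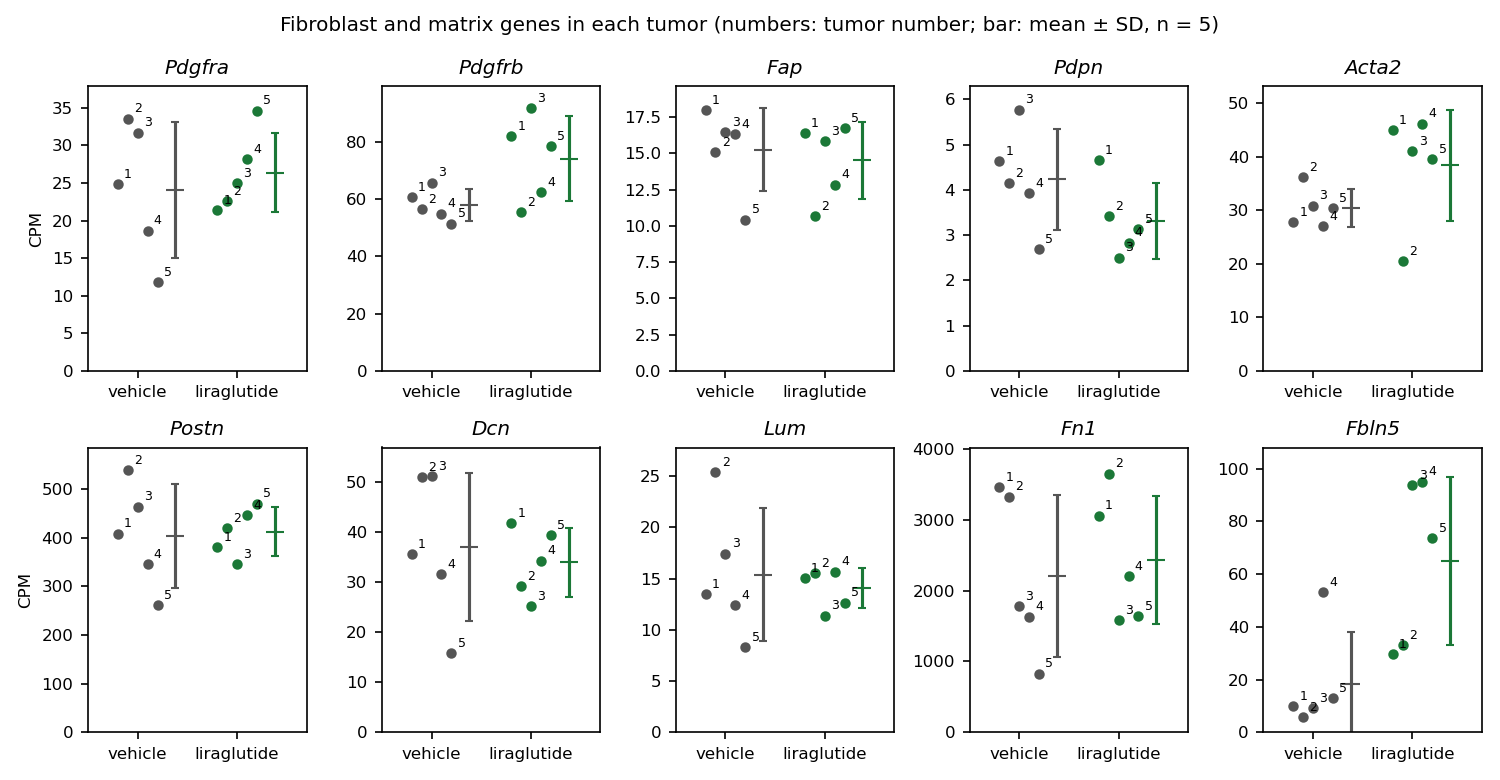
CPM of each of the 10 genes in each tumor, on axes that start at 0, with vehicle tumors in grey and liraglutide tumors in green. Points carry the tumor number and bars show the mean ± SD of 5 tumors, the lower SD bar of vehicle *Fbln5* being cut at 0. For *Fbln5*, 4 vehicle tumors sit between 5.88 and 12.95 CPM, below the 29.5 to 95.0 CPM of the liraglutide tumors, and vehicle tumor 4 sits at 53.3.

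**Figure D2:**
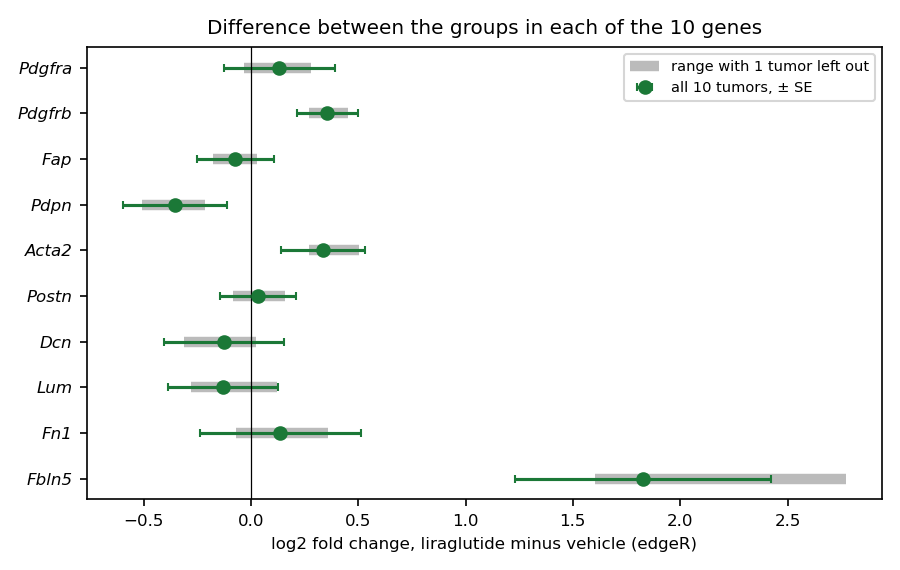
Log2 fold change of each gene (liraglutide minus vehicle, edgeR). Points with bars are the value ± SE over 10 tumors, and grey bands span the values obtained when each tumor was left out in turn. *Fbln5* lies at 1.82, whereas the other 9 lie between -0.35 and 0.36.

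*Fbln5* encodes fibulin-5, a secreted protein that binds elastin and integrins. The gene lies at chr12:101712556-101785429 on the minus strand (GRCm39). Its level was 10.02, 5.88, 9.34, 53.3 and 12.95 CPM in vehicle tumors 1 to 5. In liraglutide tumors 1 to 5 it was 29.5, 33.0, 93.7, 95.0 and 73.8 CPM. All 5 liraglutide tumors were above 4 of the 5 vehicle tumors, but only 3 were above vehicle tumor 4, so the groups overlapped. The means were 18.3 ± 19.7 CPM in the vehicle group (SD, n = 5) against 65.0 ± 31.96 CPM (SD, n = 5) with liraglutide. This was a log2 fold change of 1.82 (SE 0.60), with an unadjusted p of 0.0106 and an adjusted p of 0.482 in edgeR. It ranked 374 of 17464 by p. An exact permutation test of the log2 CPM alone, 2-sided over the tumors, gave p = 0.0238, where 5 against 5 tumors allow 0.00794 at the lowest. Without vehicle tumor 4 the log2 fold change was 2.77 and the adjusted p 0.0657, and with each other tumor left out it stayed at 1.60 or above. The spread was wide as well: the highest tumor held 16.2 times the CPM of the lowest, against 1.72 to 4.41 times for the other 9 genes.

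Other tissue in the fragment differed between the tumors. The summed level of 8 keratinocyte markers was 11.7 to 23.5 CPM with vehicle and 11.7 to 235 CPM with liraglutide, and 6 of the 7 tested were higher at an unadjusted p under 0.05 (3 of 8 without vehicle tumor 5, and 3 of 7 with the tumor number as a block). *Krt14*, the most abundant of them, had a mean of 5.98 ± 4.00 CPM with vehicle and 30.8 ± 36.9 CPM with liraglutide (SD, n = 5). *Krt1* was at 0 counts in 5 tumors, *Krt5* in 4 and *Krtdap* in 3. Liraglutide tumors 4 and 5 had 95.0 and 73.8 CPM of *Fbln5* with keratinocyte sums of 88.3 and 66.2 CPM. Liraglutide tumor 3 had 93.7 CPM of *Fbln5* with a sum of 12.2, and liraglutide tumor 2 had 33.0 CPM with the highest keratinocyte sum of the series. The summed level of 11 skeletal muscle markers was 50.6 to 327 CPM with vehicle and 122 to 443 CPM with liraglutide, and all 10 tested had a log2 fold change above 0, with a median of 0.82. Of these, 2 were higher at an unadjusted p under 0.05, and 8 when the tumor number was a block. Liraglutide tumors 3, 4 and 5, the highest in *Fbln5*, had muscle sums of 310, 292 and 443 CPM, and vehicle tumor 3 combined a muscle sum of 327 CPM with 9.34 CPM of *Fbln5*. The sum of 5 pan-leukocyte markers was 180, 182 and 189 CPM in the 3 liraglutide tumors highest in *Fbln5*, 115 and 127 CPM in the others, and 196 CPM in vehicle tumor 4. These 4 tumors, the highest in *Fbln5*, were all on the high side of the first principal component, as was vehicle tumor 5. Vehicle tumor 5 had 167 CPM of them and 12.95 CPM of *Fbln5*. The part of muscle, skin or leukocyte RNA in the *Fbln5* values was not tested.

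The RefSeq promoter table (GRCm38.p6) held windows for 5 of the 10 genes that could be shown, running from 250 bases before to 50 after each transcription start. The *Fbln5* window is given because this gene had the largest difference. It lies at chr12:101819070-101819369 on the minus strand, and capitals mark the GC box GGGCGG or its reverse complement.
Fbln5: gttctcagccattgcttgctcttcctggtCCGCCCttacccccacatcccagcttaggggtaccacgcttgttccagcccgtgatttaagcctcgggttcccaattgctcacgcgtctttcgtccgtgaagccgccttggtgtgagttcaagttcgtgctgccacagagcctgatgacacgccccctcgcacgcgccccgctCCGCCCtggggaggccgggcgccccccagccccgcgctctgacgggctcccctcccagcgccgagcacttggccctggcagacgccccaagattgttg
It held 2 such matches and 65.7% G and C. A GC box on either strand was found in 35.66% of the 32851 windows of all genes, and the other annotated *Fbln5* start, at chr12:101818435-101818734, held none.

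The other genes of elastic fibers were read from a list of 17, all tested. Of these, 12 had a log2 fold change above 0, 3 were higher and 0 lower at an unadjusted p under 0.05, and none was called. The list median was 0.27. Without vehicle tumor 5 the median was 0.18 and 2 were higher. *Eln*, which encodes elastin, the core protein of the fiber, was 4.84, 2.94, 7.35, 3.60 and 4.48 CPM in the vehicle tumors. In the liraglutide tumors it was 10.5, 4.16, 9.17, 13.04 and 17.05 CPM. For *Eln*, 4 liraglutide tumors were above every vehicle tumor, the exception being liraglutide tumor 2 (log2 fold change 1.22, SE 0.35, edgeR unadjusted p = 0.00535, adjusted p = 0.482). *Ltbp4*, a TGF-β binding protein of the same fibers, had a mean of 36.7 ± 6.62 CPM with vehicle and 56.1 ± 11.005 CPM with liraglutide (SD, n = 5), a log2 fold change of 0.61 (edgeR unadjusted p = 0.00357, adjusted p = 0.482).

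*Pdgfrb* encodes the receptor for PDGF-B that fibroblasts share with pericytes, and it lies at chr18:61178212-61218133 (GRCm39). Its level was 60.7, 56.6, 65.7, 54.9 and 51.4 CPM in vehicle tumors 1 to 5. In liraglutide tumors 1 to 5 it was 82.1, 55.3, 91.8, 62.5 and 78.5 CPM. Liraglutide tumors 1, 3 and 5 were above every vehicle tumor, and the other 2 fell inside the vehicle range. The means were 57.9 ± 5.53 CPM with vehicle and 74.0 ± 14.8 CPM with liraglutide (SD, n = 5), so the treated group varied more. The log2 fold change was 0.36 (SE 0.14), with an unadjusted p of 0.0287 and an adjusted p of 0.503 in edgeR, and the 2-sided exact permutation test gave p = 0.0635. Leaving out single tumors gave values of 0.27 to 0.45. Summed pericyte and vascular smooth muscle markers (9 genes) were 206 to 332 CPM with vehicle and 198 to 433 CPM with liraglutide, the highest being liraglutide tumor 3, which also had the highest *Pdgfrb*. None of the 8 of these markers tested had an unadjusted p under 0.05, and without vehicle tumor 5, 1 of 9 was higher and 1 lower. *Rgs5*, the most abundant, had a mean of 85.3 ± 14.6 CPM with vehicle and 89.1 ± 29.5 CPM with liraglutide (SD, n = 5), and the part of these cells in the *Pdgfrb* values was not tested.

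*Pdgfra* encodes the receptor that marks most fibroblasts and lies at chr5:75311994-75358876 (GRCm39). It was 24.8, 33.6, 31.7, 18.7 and 11.8 CPM in the vehicle tumors. In the liraglutide tumors it was 21.4, 22.6, 25.0, 28.2 and 34.6 CPM. The vehicle tumors spanned nearly the whole range of the series, from the lowest in tumor 5 to close to the highest in tumor 2. Its log2 fold change was 0.13 (SE 0.26, edgeR adjusted p = 0.877), and -0.034 without vehicle tumor 5. The receptors thus differed by 0.36 and 0.13 on the log2 scale, each with its own error, and the difference between them was not tested.

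The ligands and signaling partners of the receptors were read from a list of 10 genes of the PDGF axis. Of these, 6 had a log2 fold change above 0, 3 were higher and 0 lower at an unadjusted p under 0.05, none was called and the median was 0.083. Without vehicle tumor 5, 3 were higher and 1 was lower. *Pdgfb*, the ligand of the beta receptor, was 24.7, 20.4, 22.4, 21.0 and 25.2 CPM in vehicle tumors 1 to 5. It was 33.3, 25.6, 26.8, 31.0 and 29.6 CPM in liraglutide tumors 1 to 5. The groups did not overlap, although the gap between 25.2 and 25.6 CPM was narrow (log2 fold change 0.36, SE 0.11, edgeR unadjusted p = 0.00725, adjusted p = 0.482). The kinase subunit gene *Pik3r1* had a mean of 75.3 ± 19.3 CPM with vehicle and 103 ± 18.9 CPM with liraglutide (SD, n = 5), a log2 fold change of 0.45 (edgeR unadjusted p = 0.0316, adjusted p = 0.503).

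*Fap* and *Pdpn* encode cell surface proteins used to recognize activated fibroblasts, a protease and a mucin-like glycoprotein. *Fap* (chr2:62331286-62404419, GRCm39) was 18.0, 15.1, 16.5, 16.3 and 10.4 CPM with vehicle and 16.4, 10.7, 15.8, 12.8 and 16.7 CPM with liraglutide, with every liraglutide tumor inside the vehicle range. It differed by -0.072 on the log2 scale (SE 0.18, edgeR adjusted p = 0.903) and by 0.029 without liraglutide tumor 2. *Pdpn* (chr4:142990871-143026143, GRCm39) was the least abundant gene, with 30 to 67 counts per tumor. It was 4.63, 4.16, 5.77, 3.93 and 2.69 CPM with vehicle and 4.66, 3.43, 2.502, 2.83 and 3.13 CPM with liraglutide. Liraglutide tumor 3 was below every vehicle tumor, and the others overlapped with the vehicle group. The log2 fold change was -0.35 (SE 0.24, edgeR adjusted p = 0.641), or -0.51 to -0.22 when single tumors were left out. The summed level of 6 lymphatic endothelial markers, cells that also express *Pdpn*, was 9.74 to 68.9 CPM with vehicle and 10.9 to 34.2 CPM with liraglutide. Their highest sum was in vehicle tumor 5, which had the second lowest *Pdpn* level of the series, and *Lyve1* made up 56.5 CPM of that sum. *Lyve1*, a hyaluronan receptor also found on some macrophages, was at 16.0 ± 23.0 CPM with vehicle and 4.26 ± 2.19 CPM with liraglutide (SD, n = 5, edgeR unadjusted p = 0.0434, adjusted p = 0.515), and none of the 3 markers tested had an unadjusted p under 0.05 without vehicle tumor 5. *Flt4*, the most abundant over both groups together, was at 9.49 ± 3.63 and 11.2 ± 7.54 CPM.

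*Acta2* encodes smooth muscle actin, the contractile protein by which myofibroblasts are defined, and lies at chr19:34217737-34232990 (GRCm39). It was 27.8, 36.2, 30.9, 27.1 and 30.5 CPM in the vehicle tumors. In the liraglutide tumors it was 44.9, 20.6, 41.0, 46.2 and 39.5 CPM. Liraglutide tumors 1, 3, 4 and 5 were above every vehicle tumor, and liraglutide tumor 2 was below every one. Its log2 fold change was 0.34 (SE 0.20, edgeR unadjusted p = 0.115, adjusted p = 0.594). Without liraglutide tumor 2 it was 0.50, with an unadjusted p of 0.00124 and an adjusted p of 0.250. Exons of *Acta2* overlap those of *Stambpl1* on the opposite strand over 301 bases, and because the strand setting of the counting is not given in the sources used here, *Acta2* is uncertain to that extent (4084 counts over 10 tumors, 6502 for *Stambpl1*).

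Among 11 further contractile genes, 10 were tested, 7 had a log2 fold change above 0, 1 was higher and 0 were lower at an unadjusted p under 0.05, none was called and the median was 0.10. Without vehicle tumor 5 all 11 were tested and the median was 0.27. *Myl9*, a myosin light chain, was at 2.67 ± 0.725 CPM with vehicle and 3.84 ± 0.770 CPM with liraglutide (SD, n = 5), a log2 fold change of 0.53 (edgeR unadjusted p = 0.0454, adjusted p = 0.515). *Mylk*, the kinase that activates it, was at 99.2 ± 11.6 and 114 ± 22.8 CPM, a log2 fold change of 0.20 (edgeR adjusted p = 0.657).

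*Postn* encodes periostin, a matricellular protein of activated fibroblasts, and lies at chr3:54268501-54298471 (GRCm39). It was 408, 538, 464, 345 and 261 CPM with vehicle and 381, 419, 346, 447 and 470 CPM with liraglutide. Every liraglutide tumor was inside the vehicle range, and the means of 403 ± 107 and 413 ± 49.6 CPM (SD, n = 5) lay within 1 SD of each other (log2 fold change 0.033, SE 0.18, edgeR adjusted p = 0.962). The value was -0.011 without vehicle tumor 4, -0.014 without liraglutide tumor 5 and -0.083 without vehicle tumor 5.

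*Dcn* and *Lum* encode decorin and lumican and lie next to each other on chromosome 10 (chr10:97315275-97358155 and chr10:97400990-97408577, GRCm39), 42834 bases apart. *Dcn* was 35.6, 51.0, 51.2, 31.5 and 15.8 CPM with vehicle and 41.7, 29.2, 25.2, 34.3 and 39.4 CPM with liraglutide. *Lum* was 13.5, 25.3, 17.4, 12.4 and 8.31 CPM with vehicle and 15.0, 15.5, 11.4, 15.7 and 12.7 CPM with liraglutide. In both genes the lowest and the highest tumor of the series were vehicle tumors. The log2 fold changes were -0.12 (SE 0.28, edgeR adjusted p = 0.895) for *Dcn* and -0.13 (SE 0.26, edgeR adjusted p = 0.877) for *Lum*. *Dcn* was at 0.017 without vehicle tumor 2 and at 0.025 without vehicle tumor 3, and *Lum* at 0.12 without vehicle tumor 2. The next proteoglycan genes of the cluster, *Kera* and *Epyc*, had 0 counts in every tumor and 0 to 2 counts per tumor.

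Of 14 further small leucine-rich proteoglycans, 10 were tested, 6 had a log2 fold change above 0, 1 was higher and 1 lower at an unadjusted p under 0.05, none was called and the median was 0.16. With vehicle tumor 5 left out, 2 were higher and 1 lower, and the median was 0.051. *Bgn*, which encodes biglycan, the nearest relative of decorin, was 1395, 1315, 1647, 1671 and 1221 CPM with vehicle and 2265, 1454, 2940, 2077 and 1967 CPM with liraglutide. Here 4 of 5 liraglutide tumors were above every vehicle tumor (log2 fold change 0.56, SE 0.17, edgeR unadjusted p = 0.00757, adjusted p = 0.482). *Ogn*, which encodes osteoglycin, had the opposite sign, at 11.8 ± 4.87 CPM with vehicle and 7.31 ± 1.12 CPM with liraglutide (SD, n = 5), a log2 fold change of -0.69 (edgeR unadjusted p = 0.0342, adjusted p = 0.510).

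*Fn1* encodes fibronectin and lies at chr1:71624673-71692419 (GRCm39). It was 3456, 3323, 1785, 1631 and 827 CPM with vehicle and 3056, 3647, 1586, 2203 and 1635 CPM with liraglutide. In each group tumors 1 and 2 were the highest, and the spread within a group was larger than the distance between the means of 2204 ± 1142 and 2425 ± 904 CPM (SD, n = 5). Its log2 fold change was 0.14 (SE 0.37, edgeR adjusted p = 0.912), -0.069 without vehicle tumor 5 and -0.050 without liraglutide tumor 2.

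Of 13 genes of fibronectin receptors and assembly, all were tested, 9 had a log2 fold change above 0, 2 were higher and 0 lower at an unadjusted p under 0.05, none was called by edgeR and the median was 0.34. In the fit that left out vehicle tumor 5, 4 were higher and 1 was lower. *Itgb3*, the beta subunit of the vitronectin and fibronectin receptor αVβ3, was 39.8, 24.1, 43.3, 58.4 and 45.9 CPM with vehicle. With liraglutide it was 69.1, 49.2, 79.0, 137 and 74.9 CPM. The 4 liraglutide tumors other than tumor 2 were above every vehicle tumor (log2 fold change 0.95, SE 0.28, edgeR unadjusted p = 0.00559, adjusted p = 0.482). *Itgb3* was the single gene of the related lists that DESeq2 called, at a log2 fold change of 0.95 and an adjusted p of 0.0486. *Itgb6*, the subunit of the epithelial receptor αVβ6, had a mean of 13.1 ± 8.60 CPM with vehicle and 37.0 ± 23.5 CPM with liraglutide (SD, n = 5), a log2 fold change of 1.505 (edgeR unadjusted p = 0.0210, adjusted p = 0.494).

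The remaining lists describe states of fibroblasts. Of 17 fibroblast identity genes, 13 were tested, 11 had a log2 fold change above 0, 2 were higher and 0 lower at an unadjusted p under 0.05, and the median was 0.24. *Thy1*, a surface glycoprotein, was at 32.4 ± 5.01 and 40.6 ± 3.84 CPM (vehicle and liraglutide, SD, n = 5, log2 fold change 0.33, edgeR unadjusted p = 0.0243, adjusted p = 0.499), and *Mrc2*, a collagen uptake receptor, had a log2 fold change of 0.47 (adjusted p = 0.499). The transcription factor gene *Tcf21* was at 0 counts in every tumor, and *Col1a1*, *Col1a2* and *Col3a1* had means of 617 to 1047 CPM in the vehicle group, so fibrillar collagen RNA was abundant in these fragments. Of 12 genes of the myofibroblastic matrix, 11 were tested, 8 had a log2 fold change above 0, 4 were higher and 0 lower at an unadjusted p under 0.05, and the median was 0.29. *Lrrc15*, a marker of TGF-β-driven fibroblasts, was 21.3, 30.8, 17.2, 16.6 and 16.6 CPM with vehicle and 31.0, 23.2, 35.5, 36.7 and 38.9 CPM with liraglutide (log2 fold change 0.69, SE 0.20, edgeR unadjusted p = 0.00567, adjusted p = 0.482). For *Lrrc15*, 4 of 5 liraglutide tumors were above every vehicle tumor and tumor 2 was not. The margin was narrow, 31.0 CPM in liraglutide tumor 1 against 30.8 CPM in vehicle tumor 2. Genes named from these lists had the smallest p in the same data, so near separation was favored by how they were picked. *Thbs1*, which encodes thrombospondin-1, was at 253 ± 46.5 and 350 ± 48.2 CPM (log2 fold change 0.46, edgeR adjusted p = 0.482).

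Of 14 genes of inflammatory fibroblasts, 13 were tested, 6 had a log2 fold change above 0, 0 were higher and 1 was lower at an unadjusted p under 0.05, and the median was -0.094. When vehicle tumor 5 was left out, 2 were higher and 4 lower, and the median was -0.18. With the tumor number as a block, 3 were higher and 1 was lower. The neutrophil chemokine gene *Cxcl1* was 7.53, 11.4, 6.51, 4.35 and 3.34 CPM with vehicle and 3.20, 3.43, 2.502, 3.68 and 3.50 CPM with liraglutide (log2 fold change -1.02, SE 0.31, edgeR unadjusted p = 0.00660, adjusted p = 0.482). Vehicle tumor 5 alone was inside the liraglutide range. *Ly6c1*, also expressed by endothelium, had a log2 fold change of 0.99 in the other direction (edgeR unadjusted p = 0.0688, adjusted p = 0.547). Of 10 partners of podoplanin and periostin, 8 were tested, 4 had a log2 fold change above 0, 1 was higher and 0 lower at an unadjusted p under 0.05, and the median was 0.014. *Tgfbi*, the paralog of periostin, had a log2 fold change of 0.33 (edgeR adjusted p = 0.501) and *Bmp1*, a protease that processes matrix proteins, one of 0.23 (edgeR adjusted p = 0.662). Over the 9 lists together, 17 of the 105 genes tested were higher (16.2%) and 2 lower (1.9%) at an unadjusted p under 0.05, beside 3.97% and 5.62% of all genes. Without vehicle tumor 5, an alternative chosen after seeing the data, 20 were higher (18.9%) and 7 lower (6.6%) of 106. In that fit 1086 of all 17793 genes tested were higher and 1323 lower at the same p.

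**Figure D3:**
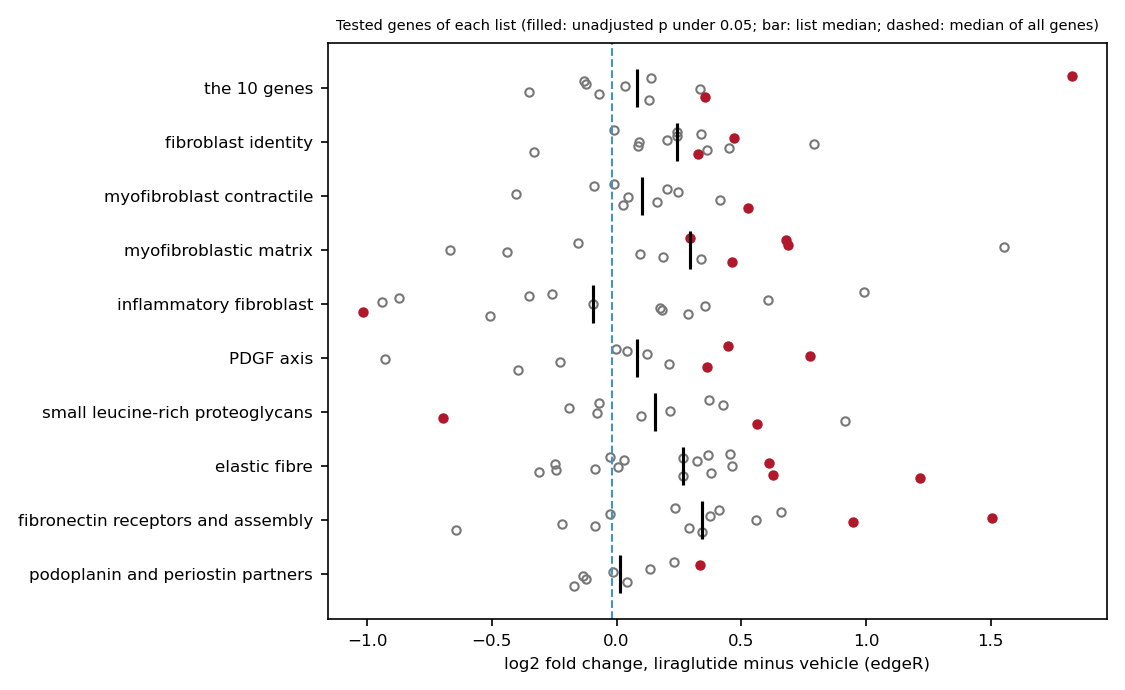
Log2 fold change (liraglutide minus vehicle, edgeR) of each tested gene of the 10 fibroblast genes and of 9 related lists. Filled points have an unadjusted p under 0.05, black bars are list medians and the dashed line is the median of all genes tested, -0.017. List medians lie between -0.094 (inflammatory fibroblast) and 0.34 (fibronectin receptors and assembly).

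Compared per length, as CPM per kb of merged exons averaged over the 10 tumors, *Fn1* was the most abundant at 146 ± 61.8 (SD, n = 10). It was followed by *Postn* at 46.6 ± 8.97, *Acta2* at 10.7 ± 2.61, *Pdgfrb* at 8.15 ± 1.68 and *Fbln5* at 5.71 ± 4.81 CPM per kb. *Dcn* (2.72 ± 0.845), *Fap* (2.53 ± 0.448), *Lum* (2.29 ± 0.708) and *Pdgfra* (2.05 ± 0.576) were close to each other, and *Pdpn* was last at 0.761 ± 0.212 CPM per kb. Neighbors in this order were compared within tumors by 2-sided exact sign-flip permutation tests, adjusted over the 9 pairs. *Fn1* and *Postn*, *Postn* and *Acta2*, and *Pdgfra* and *Pdpn* were in this order in 10 of 10 tumors (exact, adjusted p = 0.00586 each), and *Acta2* was above *Pdgfrb* in 9 of 10 (exact, adjusted p = 0.00879). The other 5 pairs did not pass this test, with exact adjusted p between 0.0844 for *Pdgfrb* and *Fbln5* and 0.656 for *Dcn* and *Fap*. With the longest transcript in place of merged exons the order was the same, but *Acta2* and *Pdgfrb* no longer passed (exact, adjusted p = 0.135), whereas *Pdgfrb* and *Fbln5* (exact, adjusted p = 0.0316) and *Fap* and *Lum* (exact, adjusted p = 0.0176) passed. In the vehicle tumors alone *Fbln5*, at 2.51 CPM per kb, came after *Dcn* and *Fap*, and in the liraglutide tumors alone, at 8.91 CPM per kb, it came just after *Pdgfrb* at 9.15.

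The tumors were also compared by a score, the mean over the 10 genes of log2 CPM standardized across tumors. It was 0.11, 0.53, 0.41, -0.29 and -1.54 in vehicle tumors 1 to 5 and 0.49, -0.33, -0.0003, 0.22 and 0.41 in liraglutide tumors 1 to 5. Vehicle tumor 5 had the lowest level of the series in 7 of the 10 genes, *Pdgfra*, *Pdgfrb*, *Fap*, *Postn*, *Dcn*, *Lum* and *Fn1*. The other 4 vehicle tumors overlapped with the liraglutide tumors in score. That tumor also had the highest summed level of 8 epithelial tumor cell markers, 10061 CPM against 4704 to 7629 CPM in the other 9, while vehicle tumor 3 combined the second highest sum, 7629 CPM, with a score of 0.41. Vehicle tumor 5 also had the highest lymphatic endothelial sum, 68.9 CPM, and a blood endothelial sum of 108 CPM, within the 103 to 165 CPM of the other 9. *Krt8*, the most abundant of the epithelial tumor cell markers, was at 3294 CPM in vehicle tumor 5 and at 1631 to 2948 CPM in the others. Over the 10 tumors, r of the log2 marker sum with the score was 0.65 for blood endothelium, -0.57 for lymphatic endothelium and -0.50 for epithelial tumor cells. These values are descriptive. The part of the tumor cell or vessel share in the low fibroblast levels was not tested. The group means of the score were -0.16 ± 0.84 with vehicle and 0.16 ± 0.33 with liraglutide (SD, n = 5).

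**Figure D4:**
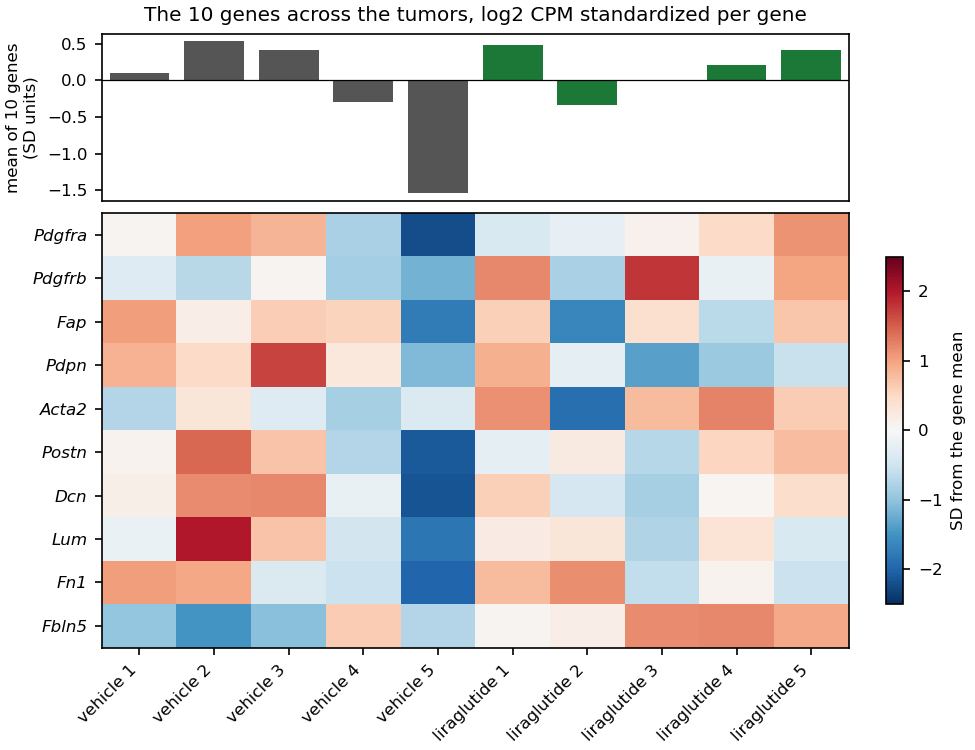
Bars, the score of each tumor (mean of the 10 genes, in SD units). Tiles, log2 CPM of each gene in each tumor as SD from the gene's mean over the 10 tumors, red above and blue below. Vehicle tumor 5 is the lowest column, at a score of -1.54, and *Fbln5* is highest in liraglutide tumors 3 and 4.

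Across the 10 tumors, Pearson's r of log2 CPM was positive in 35 of the 45 pairs of genes, with a median of 0.35. By permutation (100000 draws, adjusted over the 45 pairs) 4 pairs had an adjusted p under 0.05, all positive. *Pdgfra* and *Postn* were the closest (r = 0.93, permutation adjusted p = 0.0130, rho = 0.90, permutation adjusted p = 0.0396). They were followed by *Postn* and *Dcn* (r = 0.88, permutation adjusted p = 0.0234, rho = 0.73, permutation adjusted p = 0.174), *Postn* and *Lum* (r = 0.88, permutation adjusted p = 0.0234, rho = 0.79, permutation adjusted p = 0.130) and *Dcn* and *Lum* (r = 0.85, permutation adjusted p = 0.0342, rho = 0.75, permutation adjusted p = 0.174). With the 2 tumors farthest from the median of the first gene left out, r was 0.85, 0.63, 0.62 and 0.74. The number of pairs at an adjusted p under 0.05 was 0 without vehicle tumor 5 and 1 without vehicle tumor 2 or 3 or liraglutide tumor 3, and the median r over all pairs was 0.12 without vehicle tumor 5. With the group means subtracted the 4 pairs had r of 0.94, 0.90, 0.90 and 0.85. *Fbln5* had a median r of -0.15 with the other 9 and a positive r with 3 of them, and its lowest value was with *Pdpn* (r = -0.62, permutation adjusted p = 0.205, rho = -0.67, permutation adjusted p = 0.215).

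**Figure D5:**
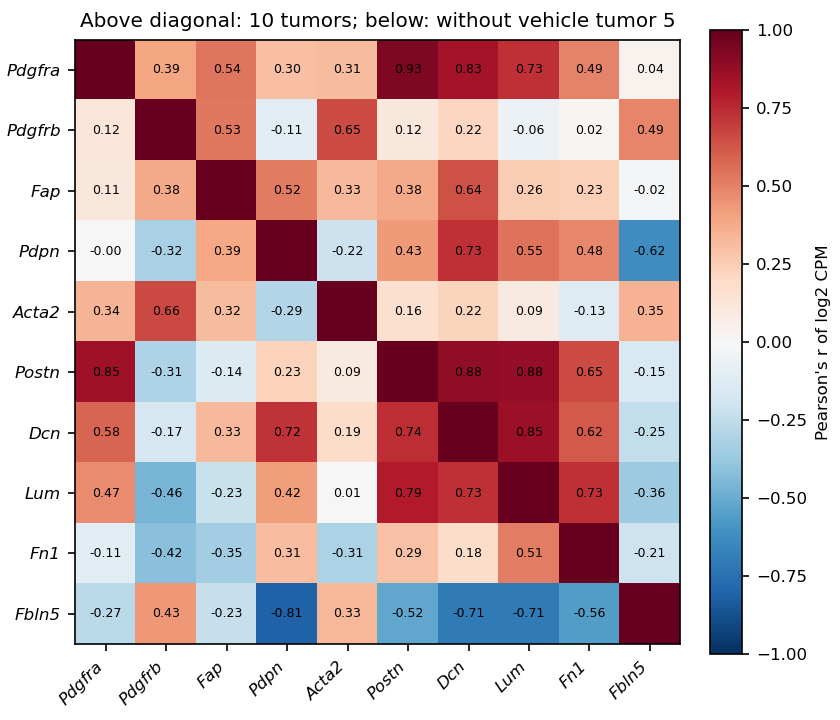
Pearson's r of log2 CPM between the 10 genes, over 10 tumors above the diagonal and without vehicle tumor 5 below it. *Pdgfra*, *Postn*, *Dcn* and *Lum* form the block of high values above the diagonal (0.73 to 0.93), and the *Fbln5* column is at -0.62 to 0.49.

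The promoters of *Postn* and *Pdgfra* are given because the levels of these genes followed each other most closely. The windows lie at chr3:54360857-54361156 and chr5:75152001-75152300 (RefSeq, GRCm38.p6, plus strand for both), and capitals mark TATAA.
Postn: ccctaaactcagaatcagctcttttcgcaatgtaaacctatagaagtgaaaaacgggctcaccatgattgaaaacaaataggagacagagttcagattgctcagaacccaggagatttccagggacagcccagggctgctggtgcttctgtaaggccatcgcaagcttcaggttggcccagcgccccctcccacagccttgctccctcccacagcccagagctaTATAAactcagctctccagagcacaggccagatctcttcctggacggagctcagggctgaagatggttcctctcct
Pdgfra: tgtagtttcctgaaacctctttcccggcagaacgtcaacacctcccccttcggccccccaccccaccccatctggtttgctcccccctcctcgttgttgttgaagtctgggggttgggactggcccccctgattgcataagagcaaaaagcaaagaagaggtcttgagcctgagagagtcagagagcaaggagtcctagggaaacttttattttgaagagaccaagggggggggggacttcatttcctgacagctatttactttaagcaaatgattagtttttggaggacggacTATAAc
With the transcription start counted as 0, TATAA lay at -26 to -22 in the *Postn* window and at 44 to 48 in the *Pdgfra* window. The other annotated *Postn* start, at chr3:54359017-54359316, held no TATAA, and the *Acta2* window held one at 10 to 14. TATAA was found on either strand in 24.87% of all windows of this length. The 7 windows searched covered 5 of the 10 genes, *Postn*, *Pdpn*, *Pdgfra*, *Fbln5* and *Acta2*. In them the CArG box bound by serum response factor (1.629% of all windows) and the AP-1 motif TGANTCA (7.808%) had no match. Both strands were searched, the CArG box by its strict consensus alone, and looser forms were not searched, so this says nothing of the factors. The TEAD motif GGAATG (14.66% of all windows) was found in the *Acta2* window.

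The genes outside the 10 whose log2 CPM followed the score most closely over the 10 tumors were *Ccdc120* (r = 0.96), *Lgi2* (0.95), *Armcx3* (0.94), *Fermt2* (0.94), *Hoxc8* (0.93) and *Adamts5* (0.93). These values are descriptive and lean on vehicle tumor 5, without which they were 0.80, 0.92, 0.92, 0.78, 0.71 and 0.78. *Fermt2* encodes kindlin-2, an activator of integrins, and *Adamts5* a protease that cleaves proteoglycans. Their own log2 fold changes were 0.046 and 0.055.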

How the data were processed

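RNA of 10 tumors, 5 per group by the sample titles, was sequenced as stranded, ribosomal RNA-depleted paired reads. The authors used TopHat 2.0.13 over Bowtie 1.0.1 with the GRCm39 genome and deposited raw featureCounts counts per gene, without normalization. The submitters' processing notes also list FastQC, mm10 and GRCh38. The annotation release, strand setting and treatment of multiply mapped reads are not given in the sources used here. Identifiers were matched without version to GENCODE M39 (51731, 93.38%, holding 98.31% of the counts), which gave symbols, GRCm39 positions and exon lengths. Of these, 35 had the same version, so gene models may differ in detail. Of 200 listed genes, 199 were matched. Promoters came from RefSeq on GRCm38.p6, and the GRCm38.p6 and GRCm39 positions were not mixed.

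Counts were filtered (filterByExpr), TMM-scaled and tested with treatment as the single factor in edgeR 4.0.16 (R 4.3.3). Log2 CPM used a prior count of 2. Alternatives were limma-voom (limma 3.58.1), DESeq2 1.42.0 (independent filtering on or off), other scalings and filters, a robust fit, the tumor number as a block, exclusion of muscle, skin and fat markers, and each tumor left out. The edgeR and correlation steps were also run on simulated data as a check of the code, with no outcome given here. Named genes were all 10 fibroblast genes, the 2 of smallest p per related list, the most abundant gene of marker lists and those at 0, and the 6 most correlated with the score. *Lyve1*, the collagen genes, *Tcf21*, *Kera*, *Epyc* and *Stambpl1* were named after their values were seen. The genes, lists and tests were chosen with earlier results of these data known. Replicates are separate mice. Counting intervals and limits cover counting error only. The columns of all 10 tumors were used.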

Additional observations from a re-analysis of the deposited data

Results flagged for a closer look

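A gap test within groups of 5 tumors marked 4 of 76 groups examined, where chance marks about 1 in 20. *Acta2* was 20.6 CPM in liraglutide tumor 2, and the nearest of the other liraglutide tumors had 39.5 CPM. *Fbln5* was 53.3 CPM in vehicle tumor 4, and the nearest of the other vehicle tumors had 12.95 CPM. The summed level of the 6 lymphatic endothelial markers was 68.9 CPM in vehicle tumor 5, where the next tumor had 24.7 CPM, and 34.2 CPM in liraglutide tumor 5, where the next had 16.8 CPM.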

How the results depend on the processing

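Of 200 values of the 10 genes under other settings, 190 kept their direction and 10 turned it, all 10 with a tumor left out. *Pdgfrb*, *Pdpn*, *Acta2* and *Fbln5* kept theirs in every setting run. With single tumors left out, the log2 fold change of *Pdgfra* ran from -0.034 (without vehicle tumor 5) to 0.28, *Fap* from -0.17 to 0.029 (without liraglutide tumor 2), *Dcn* from -0.31 to 0.025 (without vehicle tumor 3) and *Lum* from -0.28 to 0.12 (without vehicle tumor 2). *Dcn* was also at 0.017 without vehicle tumor 2. *Postn* ran from -0.083 (without vehicle tumor 5) to 0.16 and was at -0.011 without vehicle tumor 4 and -0.014 without liraglutide tumor 5. *Fn1* ran from -0.069 (without vehicle tumor 5) to 0.36 and was at -0.050 without liraglutide tumor 2. The cause was not tested. Of all genes, edgeR and limma-voom called 0 in every setting run, DESeq2 called 25 and, without independent filtering, 21. The 1675 genes at an unadjusted p under 0.05 ranged from 919 (without liraglutide tumor 5) to 2704 (without vehicle tumor 4), with 1046 without vehicle tumor 2 and 1070 without liraglutide tumor 3. When single tumors were left out, the 694 higher ones ranged from 391 (without liraglutide tumor 5) to 1268 (without vehicle tumor 4). Within that range were 447 without vehicle tumor 2 and 1086 without vehicle tumor 5. Testing all genes with at least 1 count gave 1166 higher ones, and the fit blocked on tumor number gave the most, 1309. The count of the 10 genes at that p ranged from 1 to 3 (without liraglutide tumor 2). The 4 correlated pairs ranged from 0 (without vehicle tumor 5) to 6 (without liraglutide tumor 5). Scaling by library size alone put 55.8% of all genes above 0 in place of 47.4%.

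The tumors came from different mice, and not every same-numbered pair deviated together, so the number was not taken as a pairing. Correlations of pairs 1 to 5 were 0.35, 0.57, -0.075, 0.068 and 0.39, against mean correlations with other numbers of -0.14, -0.19, 0.018, 0.024 and -0.055. Not every tumor correlated best with its own number. With the replicate block 2585 genes had an unadjusted p under 0.05, 1309 of them higher, and 1 gene of the related lists was lower in place of 2 (7 without vehicle tumor 5 and without the block). *Fbln5*, higher in 5 of 5 pairs, had an unadjusted p of 2.6e-04 and an adjusted p of 0.228 with it, *Pdgfrb* had an adjusted p of 0.263, and no call was made among the 10 genes. *Pdpn* rested on the fewest reads, 30 to 67 counts per tumor.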

Other observations

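Blood endothelial markers, given above beside the score, and adipocyte markers, not used above, lay in overlapping ranges. The sum of 8 blood endothelial markers was 103 to 165 CPM with vehicle and 105 to 138 CPM with liraglutide, and *Cdh5*, the most abundant, was at 42.4 ± 10.997 and 37.0 ± 2.38 CPM (SD, n = 5). The sum of 8 adipocyte markers was 33.0 to 133 and 43.3 to 129 CPM, with *Plin4* at 49.8 ± 17.2 and 52.5 ± 22.2 CPM. *Lep* and *Pck1* were at 0 counts in 3 tumors each. The sum of 9 macrophage markers was 446 to 985 CPM with vehicle and 466 to 625 CPM with liraglutide, and 0 of the 9 had an unadjusted p under 0.05 (1 was lower without vehicle tumor 5). Of the 9, 8 had a log2 fold change above 0, with a list median of 0.23. *Mrc1*, the most abundant and the exception, was at 537 ± 253 and 322 ± 96.9 CPM (SD, n = 5, log2 fold change -0.74, edgeR adjusted p = 0.529).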
